A study of Homo sapiens with 3 samples.

Results

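Cytokine, chemokine and NF-kB genes were followed in MM468 cells, the MDA-MB-468 line of triple-negative breast cancer (TNBC), and in its chemotherapy-resistant derivatives. The 41 genes were chosen by symbol, as chemokines, cytokines, the receptor gene CSF3R, NF-kB subunits, genes that feed back on NF-kB, and the NF-kB target LCN2. All 41 were found among the 46427 genes of the deposited table.

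RNA-seq was performed on parental MM468 cells without drug treatment, on adriamycin-resistant MM468 cells and on paclitaxel-resistant MM468 cells. The adriamycin-resistant cells were the survivors of exposure to 10 to 140 nmol/L of adriamycin, a DNA-damaging anthracycline also called doxorubicin, and the paclitaxel-resistant cells those of 2 to 320 nmol/L of paclitaxel, a taxane that stabilizes microtubules. The 3 lines share 1 parent and are given as wild type in genotype. No source used here says whether a resistant line is 1 clone or whether drug was present at harvest. There was 1 library per line, so no SD, test or P value can be given, and each difference is between libraries, with biological variation not measured.

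Cytokines and chemokines are secreted proteins that signal to neighbouring cells, and chemokines attract leukocytes along a gradient. NF-kB is a family of dimeric transcription factors held in the cytoplasm by inhibitors such as the NFKBIA product until receptors for TNF or IL-1 trigger its release. It switches on many chemokine genes together with its own inhibitors, which limits the response, and tumour cells of epithelial origin often make such factors without leukocytes being present.

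The counts summed to 32704885 in parental, 47567927 in adriamycin-resistant and 43242628 in paclitaxel-resistant cells. Fold changes were taken from counts after TMM scaling, under which an equal level corresponds to 1.47 counts in adriamycin-resistant and 1.55 counts in paclitaxel-resistant cells for each parental count, and to 1.08 paclitaxel-resistant counts for each adriamycin-resistant count. The range after a fold change is its 95% interval from counting error only. A gene was compared when either library of a pair had 10 or more counts, and "higher" or "lower" is used as a call for changes of at least 2-fold. Of 9 breast epithelial markers, 9 had 10 or more counts in every library, with KRT8 or KRT19 highest. Of the leukocyte markers, MS4A1 had 0 counts in each library and CD3E 2 at most, while PTPRC had 24, 0 and 44 counts in parental, adriamycin-resistant and paclitaxel-resistant cells. The leukocyte markers did not move together. CD14, a gene the study listed from these libraries, had 755, 94 and 15 counts in that order, CD68 had 206, 527 and 65, ITGAM 22, 12 and 37, and LYZ 8 at most. The summed TPM of the 7 was 43.3, 16.7 and 3.68, of which CD14 made up 34.5 in parental cells and CD68 13.8 in adriamycin-resistant cells. Fibroblast markers summed to 7.81, 13.3 and 7.72 TPM, nearly all from COL1A1, and endothelial markers to 0.408 TPM at most. Whether the leukocyte markers have a part in any difference described here was not tested.

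Short stretches of promoters are shown first, since they hold the letters that NF-kB is known to bind, and since CXCL1, CXCL2 and CXCL3, which share them, differed in counts. RefSeq promoters of GRCh38.p14, from 250 bases before to 50 after an annotated start, were found for 32 of the 41 genes. The kappaB consensus GGGRNNYYCC was searched on both strands, with R for A or G, Y for C or T and N for any letter. It lay in at least 1 promoter of 19 of these 32 genes, against 13.3% of all 27305 genes with an entry. The 41 genes were chosen in part for their link to NF-kB, so no conclusion is drawn from this share. Among the 13 genes without a match were CXCL8, TNF, IL1B and RELA. A missing match to this pattern in this window does not show that a gene lacks a site for NF-kB. The capitals mark the match, with overlapping matches joined, and each sequence is written in the direction of the gene.
CXCL1: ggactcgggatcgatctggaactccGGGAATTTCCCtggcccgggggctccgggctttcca
CXCL2: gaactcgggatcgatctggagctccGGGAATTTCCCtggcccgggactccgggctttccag
CXCL3: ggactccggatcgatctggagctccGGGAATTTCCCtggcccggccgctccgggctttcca
CXCL5: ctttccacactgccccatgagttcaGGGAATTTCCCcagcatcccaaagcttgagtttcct
CXCL6: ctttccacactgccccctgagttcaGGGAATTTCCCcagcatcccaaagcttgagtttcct
IL6: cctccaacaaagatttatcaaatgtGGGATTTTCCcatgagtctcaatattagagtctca
NFKBIA: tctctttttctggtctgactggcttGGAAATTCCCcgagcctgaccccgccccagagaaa
NFKBIZ: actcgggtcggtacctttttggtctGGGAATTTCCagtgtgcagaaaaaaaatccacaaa
LCN2: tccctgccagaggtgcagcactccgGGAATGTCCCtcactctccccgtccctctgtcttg

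The stretch of CXCL1 lies at chr4:73869289-73869349 on the plus strand, with the match starting 79 bases before the start of the gene. That of CXCL2 is at chr4:74099238-74099298 and that of CXCL3 at chr4:74038733-74038793, both on the minus strand, with matches 78 and 79 bases before the start. CXCL5 (chr4:73998733-73998793, minus strand) and CXCL6 (chr4:73836563-73836623, plus strand) hold the same 11 letters 91 and 90 bases before the start. The IL6 stretch is at chr7:22727102-22727161 on the plus strand and the NFKBIA stretch at chr14:35404796-35404855 on the minus strand. Those of NFKBIZ (chr3:101827742-101827801) and LCN2 (chr9:128149253-128149312) are on the plus strand. A match is a description of letters and not a measured binding site.

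Of the 41 genes, 6 had 0 counts in all 3 libraries and 31 had 10 or more counts in at least 1. The 6 were CXCL5, CCL2, IL1A, IL1B, IL33 and CSF3, and a count of 0 allows up to 3 counts, or a CPM of 0.0917 in parental, 0.0631 in adriamycin-resistant and 0.0694 in paclitaxel-resistant cells. On the TPM scale, which allows for gene length, LCN2 was the most abundant of the 41 in each library. Next came RELA with 108 TPM in parental cells, IL18 with 130 TPM in adriamycin-resistant cells, and RELA with 99.7 TPM in paclitaxel-resistant cells.

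**Figure D1:**
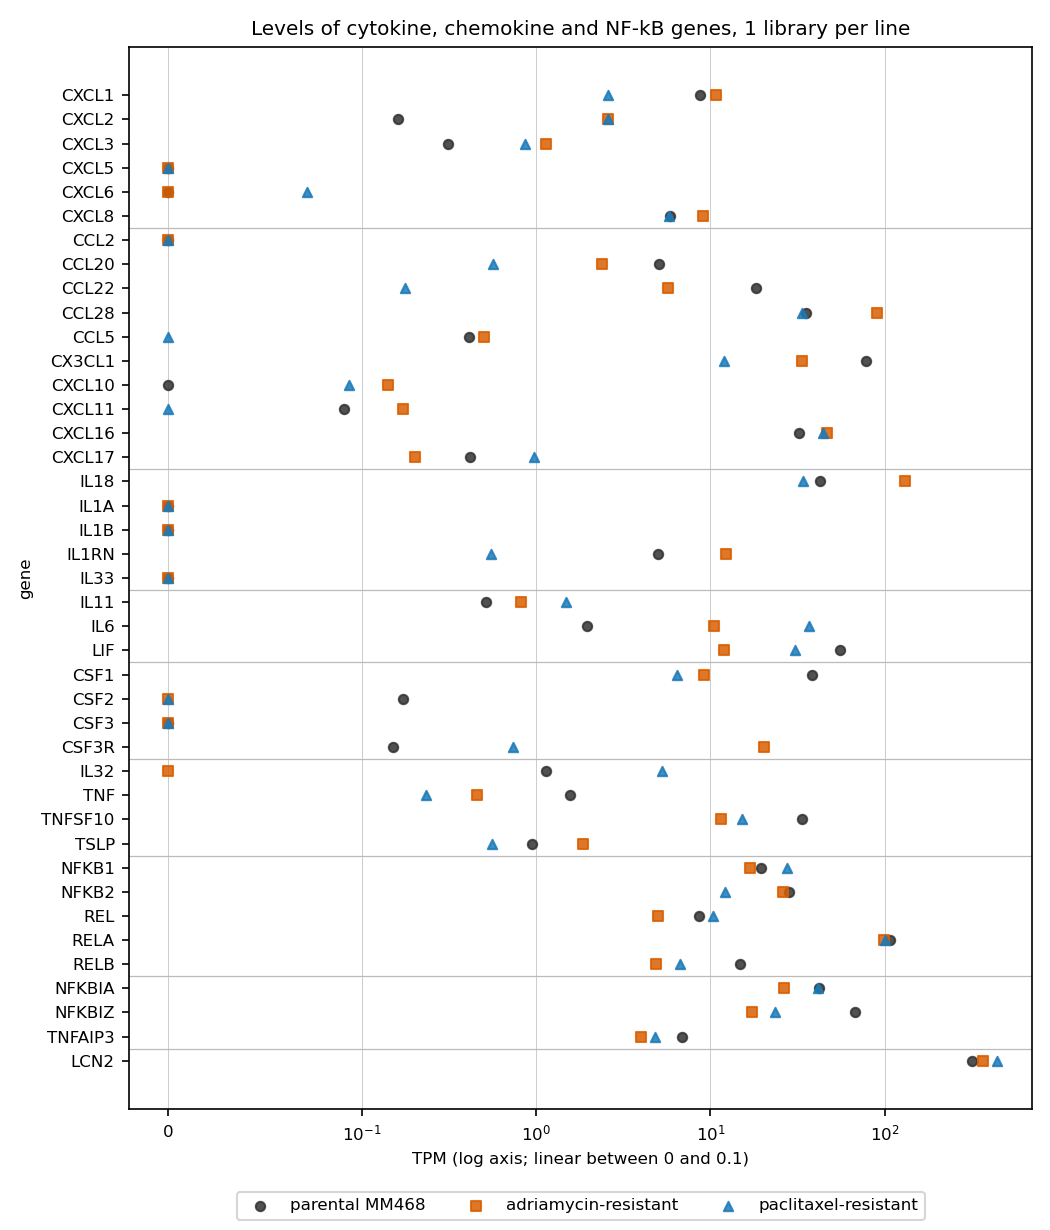
Level of each of the 41 genes in each line, as TPM on a log axis that is linear between 0 and 0.1; each point is 1 library, and lines separate the groups of genes in the order of the text. LCN2 and RELA lie far right with the 3 points close together, while CCL22 spans from 0.178 to 18.2 TPM and CSF3R from 0.151 to 20.2 TPM.

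In adriamycin-resistant against parental cells, 30 of the 41 genes were compared, of which 7 were higher and 10 lower. Over all 17950 genes compared, 10.9% were called higher and 11.4% lower. The median log2 fold change was -0.06 for the 30 genes and 0.02 for all genes. In paclitaxel-resistant against parental cells, 30 were compared, with 6 higher and 13 lower, against 20.5% higher and 13.5% lower of 19099 genes. There the median was -0.55 for the 30 genes and 0.07 for all genes. The share of higher genes was thus 23.3% and 20% of those compared, and that of lower genes 33.3% and 43.3%. The intervals of 8 and 12 of the lower genes, in that order, lay wholly beyond 2-fold. For the higher genes, 6 of 7 and 2 of 6 did. With scaling by library size only, the latter comparison gave 7 higher and 11 lower of the genes, and 71.2% instead of 60.2% of all calls were higher. Some genes, such as CSF3R and CXCL2, were compared only because 1 of the lines had enough counts, which favours differences, and both comparisons share the parental library. The 41 genes were also chosen with earlier results of these data known, so these shares are descriptive. In RNA from whole cultures, fewer cells that express a gene and less RNA per cell cannot be told apart.

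**Figure D2:**
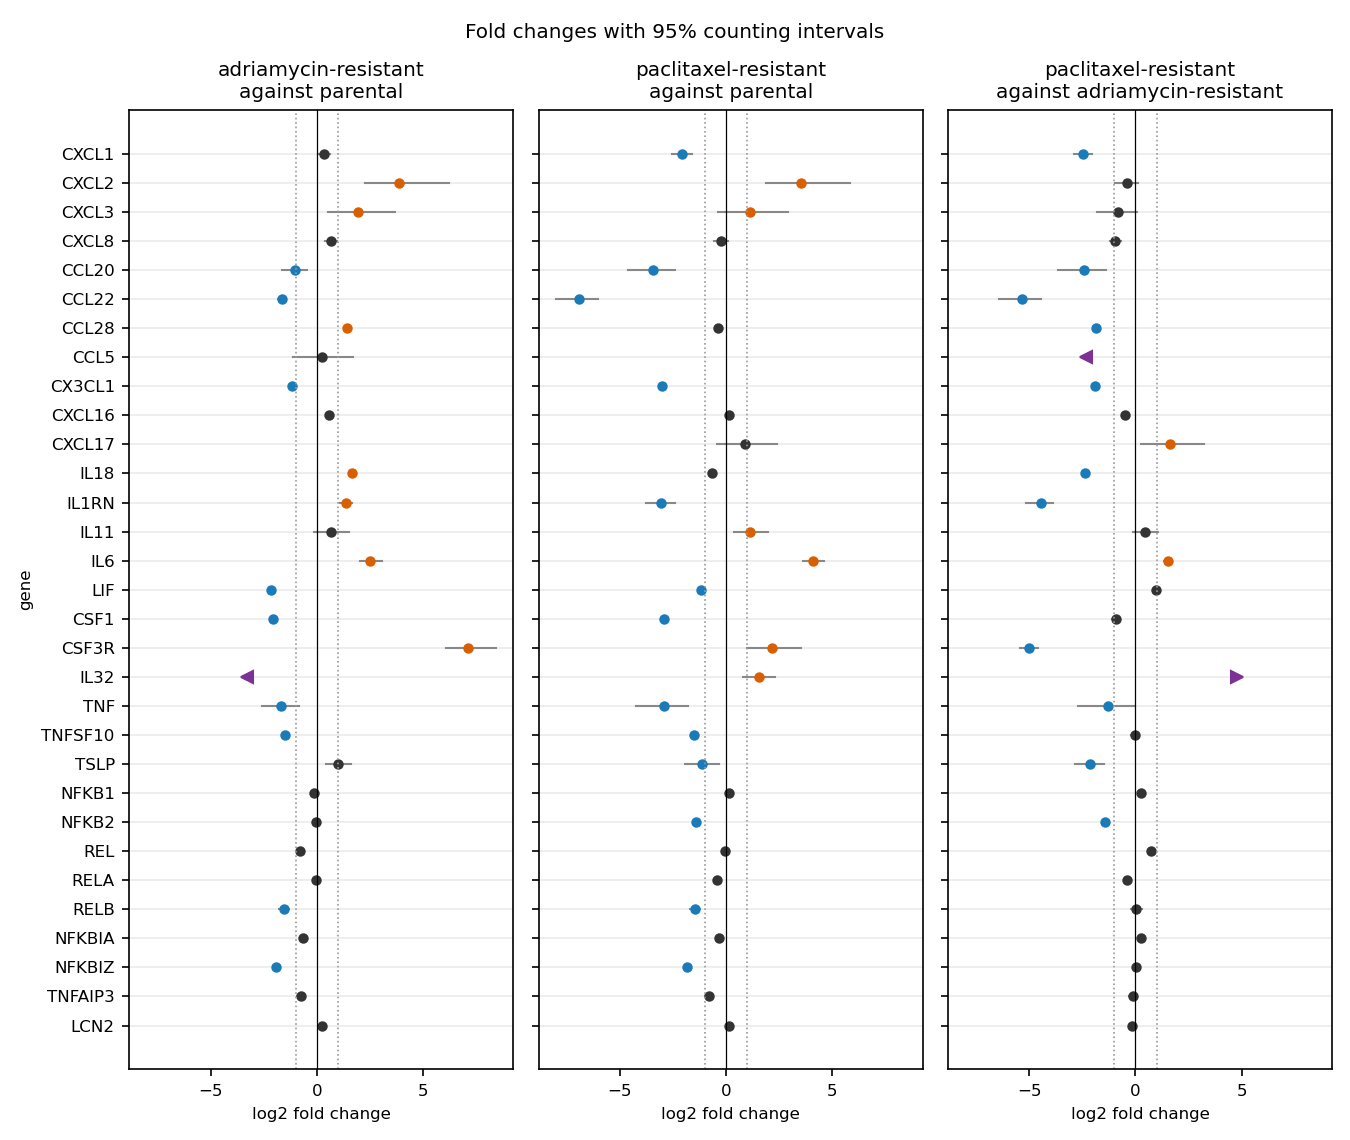
Log2 fold change of each gene compared, with its 95% counting interval as a bar, for the 3 pairs of lines; dotted lines mark 2-fold, orange and blue points are at least 2-fold higher and lower, and purple triangles are bounds against a count of 0. CSF3R stands out to the right in adriamycin-resistant cells and CCL22 to the left in paclitaxel-resistant cells.

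The CXC chemokines with the ELR motif bind CXCR1 and CXCR2 and attract neutrophils. Of the 6 genes, 4 could be compared in each pair of lines. CXCL8, which encodes interleukin-8, had 144 counts in parental, 336 in adriamycin-resistant and 188 in paclitaxel-resistant cells. CXCL1 had 152, 284 and 56 counts in the same order. Both were therefore most abundant in adriamycin-resistant cells, and CXCL1 was lowest in paclitaxel-resistant cells. CXCL8 was 1.59-fold above parental in adriamycin-resistant cells (1.30 to 1.94), and its level in paclitaxel-resistant cells, 1.19-fold below parental (0.947 to 1.48), did not differ from it beyond counting error. For CXCL1 the change was 1.27-fold (1.04 to 1.56) in adriamycin-resistant cells, and it was 4.20-fold lower (3.07 to 5.81) in paclitaxel-resistant cells.

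CXCL2 and CXCL3, the close paralogs of CXCL1, showed another order. CXCL2 had 3 counts in parental, 65 in adriamycin-resistant and 53 in paclitaxel-resistant cells, and CXCL3 had 5, 28 and 17. Both were lowest in parental cells. CXCL2 was 14.7-fold higher in adriamycin-resistant cells (4.82 to 73.2) and 11.4-fold higher in paclitaxel-resistant cells (3.70 to 57.1), intervals that are wide because of the 3 parental counts. Its log2 differences were 3.84 and 3.47 from counts, but 1.62 and 1.63 from TPM with a pseudocount of 1. CXCL3 was 3.80-fold higher (1.45 to 12.6) and 2.20-fold higher (0.778 to 7.62), and the latter interval includes an equal level. On the TPM scale with a pseudocount of 1, the log2 differences of CXCL3 were 0.70 and 0.50, both under the 2-fold mark, and with a prior count of 2 the latter change was 0.93. Reads of 1 paralog may have been counted for another. In the GENCODE v29 transcripts, 60 of 1048 windows of 50 bases in CXCL1 also occur in CXCL2, 54 of 1169 in CXCL2 occur in CXCL3, and 6 of 1048 in CXCL1 occur in CXCL3. CXCL5 had no count, and CXCL6 had 3 counts in paclitaxel-resistant cells and 0 in the others.

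These 6 genes lie on chromosome 4, where CXCL8 at chr4:73740569-73743716 and CXCL2 at chr4:74097040-74099195 are the outermost. CXCL6, with 3 counts at most, lies between CXCL8 and CXCL1. The genes for the receptors CXCR1 and CXCR2 had 0 counts in all 3 libraries.

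Among the other chemokines, the largest difference was in CCL22 (NCBI Gene ID 6367), whose product attracts regulatory and other T cells through CCR4. CCL22 had 787 counts in parental, 376 in adriamycin-resistant and 10 in paclitaxel-resistant cells. The level was highest in parental cells and near 0 in paclitaxel-resistant cells. It was 3.08-fold lower (2.72 to 3.49) in adriamycin-resistant cells and 122-fold lower (65.9 to 255) in paclitaxel-resistant cells. The latter, a log2 fold change of -6.91, became -4.03 from TPM with a pseudocount of 1. The study listed CCL22 from the same libraries, so the size of this change is not independent evidence.

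CX3CL1 (NCBI Gene ID 6376), or fractalkine, is made as a membrane-bound chemokine for CX3CR1-bearing cells, and its gene lies beside CCL22 on chromosome 16, at chr16:57372490-57385044 against chr16:57357909-57366189. It had 3781 counts in parental, 2480 in adriamycin-resistant and 720 in paclitaxel-resistant cells, the same order of lines as CCL22. CX3CL1 was 2.24-fold lower (2.13 to 2.36) and 8.13-fold lower (7.50 to 8.81). CCL17, which lies in the same cluster, had 11, 8 and 0 counts. CCL20, the ligand of CCR6, again followed this order with 63, 45 and 9 counts. It was 2.06-fold lower (1.38 to 3.09) in adriamycin-resistant and 10.8-fold lower (5.36 to 24.8) in paclitaxel-resistant cells, the former with a log2 difference of -0.84 on the TPM scale with a pseudocount of 1.

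CCL28, a mucosal chemokine of epithelial cells that binds CCR10, differed from these. It had 1233 counts in parental, 4921 in adriamycin-resistant and 1443 in paclitaxel-resistant cells, and was highest in adriamycin-resistant cells. There it was 2.71-fold higher (2.55 to 2.89) than in parental cells, while in paclitaxel-resistant cells it was 1.32-fold below parental (1.22 to 1.43). The latter, a log2 fold change of -0.40, became -0.18 with library size scaling and -0.08 from TPM with a pseudocount of 1. CXCL16, the ligand of CXCR6, had 1103, 2401 and 1866 counts and changed by less than 2-fold, by 1.48-fold upward (1.38 to 1.59) and by 1.09-fold (1.01 to 1.18). The remaining chemokines were near the counting limit. CCL5 had 8, 14 and 0 counts, CXCL10 had 0, 4 and 3, CXCL11 had 2, 6 and 0, and CXCL17 had 7, 6 and 20. CXCL10 and CXCL11, which are typical targets of interferon, were thus not compared in any pair.

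Of the IL-1 family, IL1A, IL1B and IL33 had no count in any line, while IL18 and IL1RN were measured. IL18 encodes a precursor that caspase-1 cleaves into an active cytokine. It had 700 counts in parental, 3262 in adriamycin-resistant and 688 in paclitaxel-resistant cells, and stood out in adriamycin-resistant cells only. It was 3.17-fold higher there (2.92 to 3.44) and 1.57-fold below parental in paclitaxel-resistant cells (1.42 to 1.75). The latter, a log2 fold change of -0.65, became -0.43 with library size scaling and -0.32 from TPM with a pseudocount of 1. IL1RN encodes the IL-1 receptor antagonist, which blocks IL-1 signalling. It had 125, 470 and 23 counts in the same order, so that paclitaxel-resistant cells were lowest and adriamycin-resistant cells highest. IL1RN was 2.55-fold higher (2.09 to 3.14) in adriamycin-resistant and 8.41-fold lower (5.36 to 13.8) in paclitaxel-resistant cells.

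IL6 (NCBI Gene ID 3569; chr7:22727200-22731998, plus strand) had the largest increase of the 41 genes in paclitaxel-resistant cells. IL-6 signals through IL6R and the shared subunit gp130, encoded by IL6ST, and activates STAT3. IL6 had 36 counts in parental, 302 in adriamycin-resistant and 943 in paclitaxel-resistant cells, or 1.96, 10.5 and 36.8 TPM. The level was lowest in parental cells and highest in paclitaxel-resistant cells. It was 5.70-fold higher (4.03 to 8.29) in adriamycin-resistant and 16.9-fold higher (12.1 to 24.3) in paclitaxel-resistant cells.

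IL11 and LIF signal through gp130 as well. IL11 had 19, 44 and 65 counts and was 1.57-fold above parental in adriamycin-resistant cells (0.900 to 2.85), which includes an equal level, and 2.21-fold higher in paclitaxel-resistant cells (1.31 to 3.90), where the TPM scale with a pseudocount of 1 gave a log2 difference of 0.71. LIF had 3175 counts in parental, 1047 in adriamycin-resistant and 2173 in paclitaxel-resistant cells, and was thus highest in parental cells, unlike IL6 and IL11. LIF was 4.46-fold lower (4.16 to 4.79) and 2.26-fold lower (2.14 to 2.39). With scaling by library size only, the log2 fold change of LIF in paclitaxel-resistant cells was -0.95, and from TPM with a pseudocount of 1 it was -0.83, both under the 2-fold mark. IL6ST changed by less than 2-fold in both lines, with 3758, 6545 and 4489 counts.

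CSF3R (NCBI Gene ID 1441) encodes the receptor for G-CSF, the growth factor of neutrophil precursors, and lies at chr1:36466043-36483314 on the minus strand. It had 7 counts in parental, 1418 in adriamycin-resistant and 48 in paclitaxel-resistant cells, or 0.151, 20.2 and 0.742 TPM. The receptor was near the counting limit in parental cells and clearly present in adriamycin-resistant cells. It was 138-fold higher there (66.6 to 343) and 4.43-fold higher in paclitaxel-resistant cells (1.99 to 11.6). The width of both intervals comes from the 7 parental counts. From log2 of TPM with a pseudocount of 1, the log2 difference was 4.20 in adriamycin-resistant cells, against 7.08 from counts, and 0.60 in paclitaxel-resistant cells, under the 2-fold mark. CSF3R is among the genes the study singled out from the same libraries, so its size is not independent evidence. CSF3, which encodes the ligand G-CSF, had no count in any line, and CSF2, which encodes GM-CSF, had 2 counts in parental cells and 0 in the others.

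CSF1, which encodes the macrophage growth factor M-CSF, had 2035 counts in parental, 725 in adriamycin-resistant and 416 in paclitaxel-resistant cells. Parental cells had the highest level. CSF1 was 4.13-fold lower (3.79 to 4.50) in adriamycin-resistant and 7.57-fold lower (6.81 to 8.43) in paclitaxel-resistant cells.

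TNF, the founding ligand of its family and an activator of NF-kB, was scarce, with 39 counts in parental, 18 in adriamycin-resistant and 8 in paclitaxel-resistant cells. It was 3.19-fold lower (1.78 to 5.92) and 7.54-fold lower (3.48 to 18.7). From TPM with a pseudocount of 1, the log2 differences of TNF were -0.82, under the 2-fold mark, and -1.06. TNFSF10 encodes TRAIL, a ligand that can trigger apoptosis. It had 927, 482 and 510 counts and was lower to a like extent in both resistant lines, by 2.83-fold (2.53 to 3.17) and 2.81-fold (2.52 to 3.14). IL32, a cytokine gene that mice lack, had 20 counts in parental, 0 in adriamycin-resistant and 89 in paclitaxel-resistant cells. It was at least 9.81-fold lower in adriamycin-resistant cells, taken against 3 counts in that library, and 2.88-fold higher in paclitaxel-resistant cells (1.76 to 4.93). TSLP, an epithelial cytokine of type 2 immunity, had 34, 99 and 24 counts. It was 1.98-fold above parental in adriamycin-resistant cells (1.33 to 3.01) and 2.19-fold lower in paclitaxel-resistant cells (1.26 to 3.86), where library size scaling gave a log2 fold change of -0.90 and TPM with a pseudocount of 1 gave -0.32, both under the 2-fold mark.

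The 5 NF-kB subunits were measured well in every line. RELA, the transactivating subunit of the classical dimer, had 3980 counts in parental, 5606 in adriamycin-resistant and 4540 in paclitaxel-resistant cells. NFKB1, its partner p50 in precursor form, had 1174, 1556 and 2021. Neither changed by 2-fold, with RELA 1.04-fold below parental (1.00 to 1.09) and 1.36-fold below (1.30 to 1.42), and NFKB1 1.11-fold below (1.03 to 1.20) and 1.11-fold above (1.03 to 1.20). For RELA in paclitaxel-resistant cells, the log2 fold change of -0.44 became -0.21 with library size scaling and -0.11 from TPM with a pseudocount of 1. REL had 1365, 1171 and 2066 counts and was 1.72-fold below parental (1.59 to 1.86) in adriamycin-resistant cells. In paclitaxel-resistant cells REL was 1.02-fold below parental (0.954 to 1.10), a direction that turned with library size scaling, where its log2 fold change was 0.19.

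RELB and NFKB2 form the dimer of the non-canonical pathway. RELB had 491 counts in parental, 249 in adriamycin-resistant and 276 in paclitaxel-resistant cells, and was the only subunit lower in both resistant lines, by 2.90-fold (2.49 to 3.39) and 2.75-fold (2.37 to 3.20). NFKB2 had 1310, 1852 and 750 counts. It was 1.04-fold below parental (0.969 to 1.12) in adriamycin-resistant cells, within counting error, and 2.70-fold lower (2.47 to 2.96) in paclitaxel-resistant cells.

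The feedback genes were all below parental in both lines, of which NFKBIZ passed 2-fold. NFKBIZ encodes a nuclear IkB protein that helps NF-kB to induce genes such as LCN2 and IL6. It had 3895 counts in parental, 1529 in adriamycin-resistant and 1668 in paclitaxel-resistant cells, with the resistant lines close together. NFKBIZ was 3.75-fold lower (3.53 to 3.98) and 3.61-fold lower (3.41 to 3.83). NFKBIA, which encodes the inhibitor IkB-alpha, had 973, 925 and 1178 counts and was 1.55-fold below (1.41 to 1.70) and 1.28-fold below parental (1.17 to 1.39). The latter, a log2 fold change of -0.35, became -0.13 with library size scaling and -0.02 from TPM with a pseudocount of 1. TNFAIP3, which encodes the ubiquitin-editing inhibitor A20, had 470, 414 and 412 counts and was 1.67-fold below (1.46 to 1.91) and 1.77-fold below (1.54 to 2.02).

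LCN2 encodes lipocalin-2, a secreted protein that binds bacterial siderophores. It had 3848 counts in parental, 6776 in adriamycin-resistant and 6589 in paclitaxel-resistant cells, or 317, 367 and 441 TPM. After scaling the 3 lines were close, with LCN2 1.20-fold above (1.15 to 1.24) and 1.11-fold above parental (1.06 to 1.15).

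The resistant lines were also compared directly. Of 31 genes compared, 3 were higher and 12 lower in paclitaxel-resistant than in adriamycin-resistant cells, against 19.4% higher and 14.0% lower of 19327 genes. With library size only, 4 were higher, and 71.4% instead of 58.2% of all calls were higher. The median log2 fold change was -0.47 for the 31 genes and 0.04 for all genes. Higher in paclitaxel-resistant cells were IL6 by 2.90-fold (2.54 to 3.31), CXCL17 by 3.09-fold (1.20 to 9.41) and IL32 by at least 27.5-fold. Among the 12 lower genes were CCL22 by 40.5-fold (21.8 to 85.2), CSF3R by 31.8-fold (23.9 to 43.4) and IL1RN by 22.0-fold (14.5 to 35.1). CXCL1 was 5.47-fold lower (4.09 to 7.42), IL18 5.11-fold (4.71 to 5.56) and TSLP 4.45-fold (2.82 to 7.26). The others were CCL20, CX3CL1, CCL28, NFKB2 and TNF, lower by 2.43-fold to 5.39-fold, of which TNF rests on 18 and 8 counts, and CCL5, at least 5.03-fold lower. On the TPM scale with a pseudocount of 1, CXCL17 (0.71), TSLP (-0.88), TNF (-0.24) and CCL5 (-0.59) were under the 2-fold mark, given as log2 differences. After TMM scaling, RELB, NFKBIZ, TNFAIP3 and TNFSF10 did not differ between the resistant lines beyond counting error. Their log2 intervals, for paclitaxel-resistant against adriamycin-resistant cells, were -0.21 to 0.29, -0.08 to 0.12, -0.32 to 0.09 and -0.21 to 0.16. With library size only, the log2 fold changes of NFKBIZ (0.26), TNFAIP3 (0.13) and TNFSF10 (0.22) lay outside these intervals.

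The receptors and signalling genes of these pathways were described from lists of genes outside the 41. The median log2 fold change in adriamycin-resistant and paclitaxel-resistant cells was 0.20 and 0.52 for receptors, -0.12 and -0.16 for genes upstream of NF-kB, -0.09 and -0.55 for further NF-kB targets, -0.05 and -0.28 for the JAK-STAT3 pathway, and -0.50 and 0.81 for other cytokines, against 0.02 and 0.07 for all genes. Of 35 receptor genes, 23 were compared in adriamycin-resistant cells, with 7 higher and 2 lower, and 21 in paclitaxel-resistant cells, with 8 higher and 2 lower. The shares were 30.4% higher and 8.70% lower against 10.9% and 11.4% of all genes in the former, and 38.1% and 9.52% against 20.5% and 13.5% in the latter. Of the higher receptor genes, the intervals of 6 of 7 and 5 of 8 lay wholly beyond 2-fold. Of the receptor genes compared, 4 and 1, in that order, had 0 counts in 1 of the 2 libraries. In adriamycin-resistant cells the leading genes were IL18R1, the IL-18 receptor, with 0 counts in parental and 143 in adriamycin-resistant cells, IL1R2, the decoy receptor for IL-1, with 14 and 589, and IL1RL1, the IL-33 receptor, with 4 and 117. They were at least 32.4-fold, 28.6-fold (16.9 to 52.6) and 19.9-fold (7.56 to 74.2) higher, and IL1R2 is another gene the study picked from these libraries. In paclitaxel-resistant cells IL18R1 had 79 counts, at least 17.0-fold higher than parental, and IL1R2 had 53, 2.45-fold higher (1.34 to 4.77). IL18RAP, the second subunit for IL-18, had 4 counts at most. CCR2, the receptor for the CCL2 chemokine, had 17, 358 and 184 counts and was 14.3-fold higher (8.81 to 24.8) in adriamycin-resistant and 6.99-fold higher (4.25 to 12.3) in paclitaxel-resistant cells. CSF2RA, a GM-CSF receptor subunit, had 98, 901 and 784 counts and was 6.25-fold higher (5.07 to 7.78) and 5.17-fold higher (4.19 to 6.44). CSF1R, the receptor for the product of CSF1, was 3.58-fold lower (2.86 to 4.51) in paclitaxel-resistant cells.

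Of 27 genes upstream of NF-kB, 27 were compared, with 0 higher and 2 lower in adriamycin-resistant cells and 2 higher and 2 lower in paclitaxel-resistant cells. A count of 2 is 7.41% of the list, below the share of all genes in either direction (10.9% and 11.4% in adriamycin-resistant, 20.5% and 13.5% in paclitaxel-resistant cells). MALT1 and BCL10 are partners in the complex that relays antigen and kinase signals to NF-kB. MALT1 had 2074 counts in parental, 1442 in adriamycin-resistant and 7872 in paclitaxel-resistant cells, 2.12-fold lower (1.98 to 2.27) and 2.45-fold higher (2.34 to 2.58). BCL10 was 2.83-fold lower (2.57 to 3.11) in adriamycin-resistant cells. MAP3K14, the kinase NIK that starts the non-canonical pathway, was 3.19-fold higher (2.88 to 3.54) in paclitaxel-resistant cells, and TRADD, an adaptor of the TNF receptor, 2.49-fold lower (2.14 to 2.92).

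Of 27 further NF-kB targets and regulators, 22 were compared in adriamycin-resistant cells, with 1 higher and 5 lower, and 23 in paclitaxel-resistant cells, with 3 higher and 7 lower. That is 4.55% higher and 22.7% lower against 10.9% and 11.4% of all genes, and 13.0% and 30.4% against 20.5% and 13.5%. TNFAIP2, BIRC3, which encodes a ubiquitin ligase of TNF receptor signalling, and ICAM1 were 3.32-fold (3.13 to 3.52), 2.99-fold (2.71 to 3.30) and 2.63-fold (2.53 to 2.73) lower in adriamycin-resistant cells, and TNFAIP2 was 2.87-fold lower (2.72 to 3.04) in paclitaxel-resistant cells as well. ICAM1, an adhesion molecule for leukocytes, had 7791, 4361 and 15724 counts and was 1.30-fold above parental (1.27 to 1.34) in paclitaxel-resistant cells. There SAA2, an acute-phase gene with the close paralog SAA1, IER3, an immediate early gene, and PTGES, a prostaglandin E synthase gene, were 3.83-fold (3.38 to 4.35), 3.72-fold (3.62 to 3.83) and 3.61-fold (3.37 to 3.87) lower.

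Of 14 genes of the JAK-STAT3 pathway, 14 were compared, with 1 higher and 2 lower in adriamycin-resistant and 3 higher and 2 lower in paclitaxel-resistant cells. The shares of 7.14% and 14.3% in adriamycin-resistant cells, and of 21.4% and 14.3% in paclitaxel-resistant cells, were near those of all genes (10.9% and 11.4%, and 20.5% and 13.5%). JAK1, a kinase bound to gp130, was 2.20-fold lower (2.11 to 2.29) in adriamycin-resistant cells. SOCS3, a STAT3 target that inhibits gp130 signalling, had 147, 133 and 539 counts and was 2.37-fold higher (1.97 to 2.86) in paclitaxel-resistant cells. In adriamycin-resistant cells, which also had more IL6 than parental cells, the CPM of SOCS3 was 2.80 against 4.49 in parental cells. Whether IL6 has a part in the level of SOCS3 was not tested. SOCS2 and CISH encode feedback inhibitors of cytokine receptors. SOCS2 was 2.09-fold higher (1.54 to 2.87) and 2.86-fold higher (2.13 to 3.90), and CISH 2.75-fold lower (2.31 to 3.28) in paclitaxel-resistant cells. STAT3 had 10286, 19881 and 13603 counts and changed by less than 2-fold.

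Of 35 other cytokine genes, 17 were compared in adriamycin-resistant cells, with 5 higher and 6 lower, and 21 in paclitaxel-resistant cells, with 10 higher and 4 lower. These were 29.4% higher and 35.3% lower against 10.9% and 11.4% of all genes, and 47.6% and 19.0% against 20.5% and 13.5%. Intervals lay wholly beyond 2-fold for 4 of the 5 higher and 3 of the 6 lower genes in adriamycin-resistant cells. In paclitaxel-resistant cells they did for 5 of 10 and 1 of 4. Of the genes compared, 3 and 5, in that order, had 0 counts in 1 of the 2 libraries. IL34, a second ligand of CSF1R, was 6.50-fold higher (3.87 to 11.7) in adriamycin-resistant cells, and TNFSF15 2.95-fold lower (2.55 to 3.42). IL15, a growth factor of natural killer and T cells, was 2.94-fold higher (2.26 to 3.88) and 3.09-fold higher (2.38 to 4.07). TNFSF12, which encodes TWEAK, was 3.73-fold (2.58 to 5.50) and 5.75-fold (3.76 to 9.06) lower, and TNFSF13 2.07-fold lower (1.92 to 2.22) in paclitaxel-resistant cells; these are neighbouring genes with a readthrough transcript, so reads could have been split between them. Of 20 other chemokine genes, CCL17 was the only gene compared with parental cells in either line, and no gene was compared between the resistant lines.

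**Figure D3:**
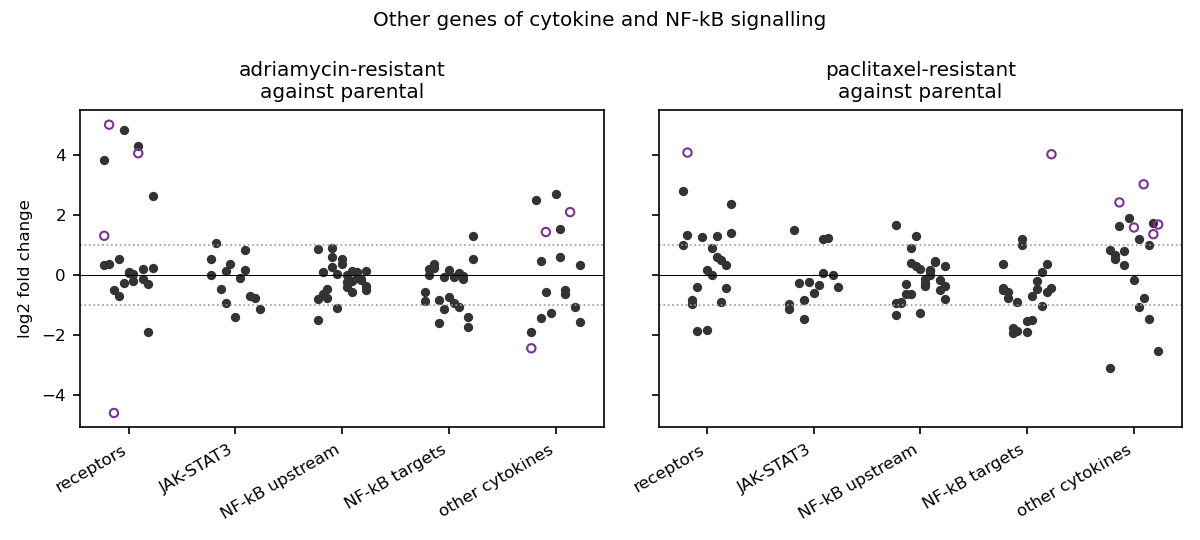
Log2 fold change of each compared gene of 5 lists outside the 41 genes, in adriamycin-resistant and paclitaxel-resistant against parental cells; each point is 1 gene, open circles are bounds against a count of 0, dotted lines mark 2-fold, and points are spread sideways for legibility. Receptor genes reach furthest up in adriamycin-resistant cells, while most NF-kB upstream genes lie within 2-fold in both panels.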

How the data were processed

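RNA-seq libraries were prepared from total RNA with a stranded mRNA kit, 1 per line, and analysed by Macrogen Japan Corp. The processing notes of the submitters list Trimmomatic 0.39, HISAT2 2.2.1, StringTie 2.2.1 and GRCh38 without their roles. The counting program, its use of strand and the annotation release are not given in the sources used here. The authors deposited whole-number counts per gene without normalization, and FPKM and TPM values that they computed; FPKM was not used.

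Counts were compared pairwise in R 4.3.3 with edgeR 4.0.16 (TMM, a minimum of 10 counts in either library, a prior count of 0.125 for log2 fold changes). For each pair of counts, the fold and its 95% interval (exact binomial) were computed with scipy 1.17.1. Intervals and floors cover counting error only. A count of 0 was replaced by 3 for bounds, which leave out the error of the other count and are not 95% limits. No test was run, since each line had a single library. Only the computation of log2 fold changes was tested on simulated counts. These had counting error alone, with known changes placed in genes well above the counting limit. The intervals, the bounds and the promoter search were not simulated.

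The genes and lists were chosen with earlier results of these data known. Besides the 41 genes, the text names up to 3 genes per list and resistant line, with the largest changes of at least 2-fold and 100 or more counts in either library; others (IL6ST, STAT3, CXCR1, CXCR2, IL18RAP, CCL17) were picked after their values were seen. The alternatives scaled the counts by joint TMM, by library size alone or with the size factors of DESeq2 1.42.0, or used another prior count, other minimums, a 4-fold mark, intervals wholly beyond 2-fold, and log2 of TPM with a pseudocount of 1. Promoters and positions are those of RefSeq for GRCh38.p14. Figures were drawn with matplotlib 3.10.9.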

Additional observations from a re-analysis of the deposited data

Results flagged for a closer look

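IL1RN and IL32 were at least 2-fold changed in opposite directions in the resistant lines. IL1RN was higher in adriamycin-resistant and lower in paclitaxel-resistant cells, with a log2 fold change of -4.45 between the resistant lines, while IL32 was the other way round, with 9.42, a fitted value that depends on the prior count because adriamycin-resistant cells had 0 counts. The differences were not tested, since each line has 1 library.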

How the results depend on the processing

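No paired analysis was possible because each line was sequenced as a single library. With a 4-fold mark, 3 of the genes were higher and 3 lower in adriamycin-resistant cells, 3 higher and 7 lower in paclitaxel-resistant cells, and 1 was higher in paclitaxel-resistant than in adriamycin-resistant cells, fewer by construction. The 6 genes higher in paclitaxel-resistant than in parental cells became 3 from TPM with a pseudocount of 1, 1 with a minimum of 100 counts and 2 with intervals wholly beyond 2-fold. All other numbers of higher or lower genes, in all 3 pairs, stayed within 1.5 times under the alternatives. Library size scaling shifted the median over all genes by 0.23 on the log2 scale in paclitaxel-resistant against parental cells and by 0.24 between the resistant lines, with 71.2% instead of 60.2% and 71.4% instead of 58.2% of calls higher. Of 455 fold changes of single genes under alternatives, 371 lay within the counting interval, or on the same side of a bound, and 84 outside it. None of the called genes changed direction, and 11 values of 6 genes under 2-fold had the opposite sign (REL against parental; LCN2, CXCL2, TNFAIP3, RELA and TNFSF10 between the resistant lines). Depth limits genes with under 10 counts.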
